A study of Mus musculus with 8 samples.

Results

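Complete Freund's adjuvant (CFA) was compared with vehicle in the dorsal root ganglia of mice that lack the histone methyltransferase G9a in sensory neurons. The comparison used the 4 libraries titled as G9a knockout, 2 given vehicle and 2 given CFA, of the 8 libraries in the series, and it covered all genes. Knockout mice (iKO) were homozygous for a floxed allele of Ehmt2, the gene of G9a, and carried an inducible Cre recombinase, written Avil-iCreERT2/AJwo in the labels, that is driven by Avil, a gene of sensory neurons. The other cells of the ganglion therefore keep Ehmt2. The remaining 4 libraries came from littermates without Cre (WT), 2 after vehicle and 2 after CFA; whether these carried floxed alleles was not given in the sources used here. CFA or vehicle went into the left paw, and ganglia were collected 14 days later. Age, sex, CFA dose, the schedule of Cre induction, the side and level of the ganglia, and whether ganglia or animals were pooled were not given in the sources used here.

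Dorsal root ganglia hold the cell bodies of the sensory neurons that carry touch, temperature, itch and pain, wrapped by satellite glia and mixed with Schwann cells, macrophages, fibroblasts and vessels. CFA is an oil emulsion of killed mycobacteria that inflames the paw for weeks, and nociceptors, the neurons that detect damage, respond to it with altered excitability and peptide content. G9a methylates histone H3 at lysine 9, a mark of silenced chromatin, and the study asked how its loss in sensory neurons bears on inflammatory pain and on the channel genes Trpa1 and Trpv1.

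The iKO vehicle libraries 1 and 2 held 42971823 and 36161344 reads assigned to genes, against 32694935 and 35516017 in iKO CFA. Values are CPM, reads relative to library size after scaling for composition, with library 1 before library 2, and changes are log2 fold changes ± standard error. Pairs of iKO libraries were alike, with a median absolute log2 difference per gene of 0.17 for vehicle and 0.20 for CFA, against 0.28 for WT vehicle and 0.59 for WT CFA. The ganglion label was checked with pan-neuronal markers. Rbfox3, the neuronal nuclear protein NeuN, stood at 195 and 204 CPM in the iKO vehicle pair and 86.8 and 85.6 CPM in the iKO CFA pair. Avil, the driver of Cre, was at 471 and 430 CPM in the iKO vehicle pair and at 221 and 174 CPM in the iKO CFA pair; it is named outside the naming rule.

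Ehmt2 served as the check of the genotype labels. It was at 74.4 and 65.4 CPM in the WT vehicle pair, 74.2 and 61.3 CPM in the WT CFA pair, 34.0 and 31.6 CPM in the iKO vehicle pair and 45.0 and 44.2 CPM in the iKO CFA pair. Every iKO library lay below every WT library. Within iKO, both CFA libraries were above both vehicle libraries (0.47 ± 0.10, adjusted p = 0.00335 in the fit to the 4 iKO libraries). The files count reads over the whole gene, so reads from exons inside and outside the floxed part cannot be told apart. Markers of the ganglion cells in which Avil does not drive Cre were also higher in iKO CFA, as given below, and their part in this rise was not tested.

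WT CFA library 2 differed from WT CFA library 1 along the same genes that separated iKO CFA from iKO vehicle. Across 18304 genes the log2 difference between these WT CFA libraries and the iKO response had a Pearson correlation of 0.50 and a Spearman correlation of 0.65, although they share no library (genes are not independent replicates). Of the 4025 genes that were higher with CFA in iKO, 92.4% were also higher in WT CFA library 2 than in library 1, against 46% of all genes tested. Among the 4284 lower genes 96.7% were lower in WT CFA library 2, against 52.7% of all genes tested. Medians of 55 of the 59 gene lists with at least 10 members tested had the same sign in both comparisons. Both WT CFA libraries received the same treatment by their labels, and what separates them was not tested. Fewer cells of a type and less RNA per cell cannot be told apart in such bulk tissue.

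**Figure D1:**
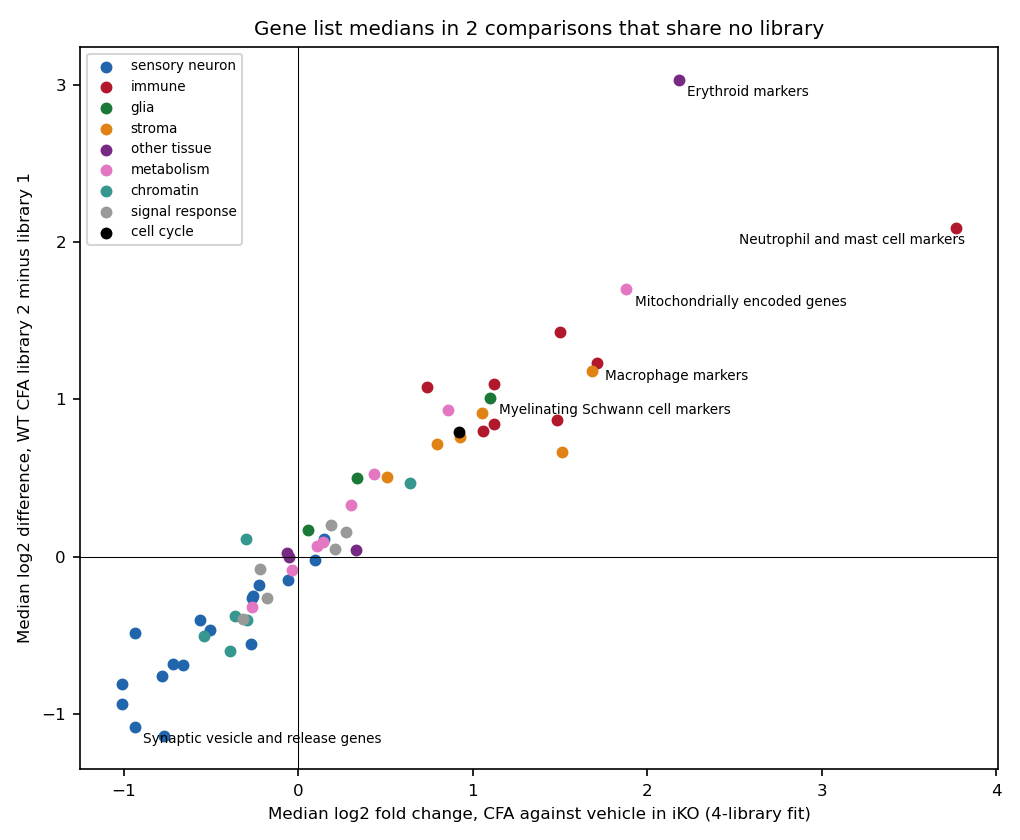
Median log2 change of each gene list with at least 10 members tested, CFA against vehicle in iKO on the horizontal axis and WT CFA library 2 minus library 1 on the vertical axis, coloured by category. Neutrophil, erythroid, mitochondrial, macrophage and myelin lists were high on both axes, and the synaptic vesicle list was low on both.

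A large share of genes differed between CFA and vehicle in the iKO ganglia. Neuronal channel, synaptic and axonal genes were lower with CFA, while genes of neutrophils, macrophages, red cells, myelin, fibroblasts, vessels, ribosomes and mitochondria were higher. With the 4 iKO libraries fitted alone, 8309 of 18326 genes tested passed an adjusted p of 0.05 (45.3%, edgeR's quasi-likelihood test with Benjamini-Hochberg adjustment), 4025 of them higher (22%) and 4284 lower (23.4%). Of these, 1573 rose and 993 fell by more than 2-fold. The vehicle and CFA libraries did not overlap for 13479 genes (73.6%). A permutation of 2 libraries against 2 cannot give a p below 0.333, so the calls rest on the model across all genes.

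Fitting all 8 libraries with a shared spread gave nearly the same fold changes (1.71 against 1.74 for Vwf) but 8 called genes of 20235 (0.0395%), all higher with CFA. That fit had 5791 genes with an unadjusted p under 0.05 and 1198 with an adjusted p under 0.1. Leaving out WT CFA library 1 from it gave 6948 calls, and leaving out WT CFA library 2 gave 6951, while leaving out any other single library gave 0. The common dispersion was 0.0753 with 8 libraries and 0.0181 with the 4 iKO libraries. In what follows, "rose" and "fell" mean that a gene passed in the 4-library fit, and no gene or list member passed in the 8-library fit unless this is said.

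**Figure D2:**
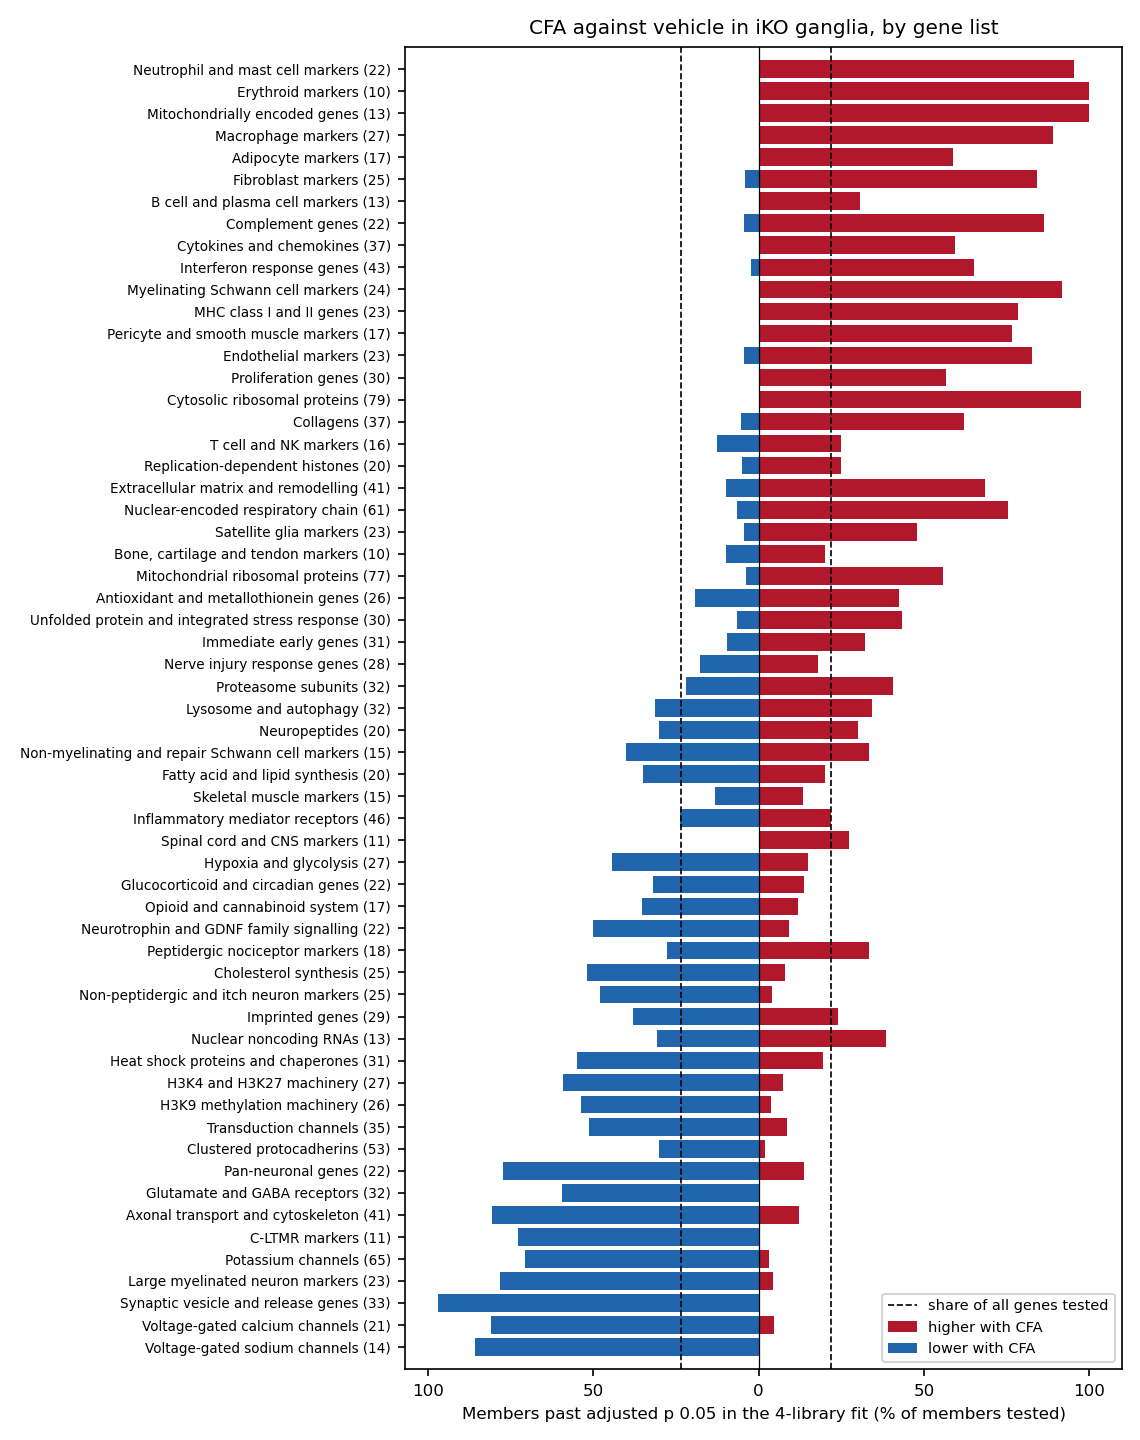
Share of each list's members (number tested in parentheses) that passed an adjusted p of 0.05 in the 4-library fit, higher with CFA to the right and lower to the left, ordered by median change. Dashed lines mark the shares of all genes tested, 22% higher and 23.4% lower; synaptic and channel lists lie far to the left, neutrophil, erythroid and mitochondrial lists far to the right.

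Trpa1 and Trpv1, the irritant-gated and the capsaicin- and heat-gated channels of nociceptors, are named in the title of the study. Trpa1 was at 87.9 and 74.5 CPM in the iKO vehicle pair and at 54.7 and 57.5 CPM in the iKO CFA pair. Both CFA libraries lay below both vehicle libraries, and Trpa1 fell by 0.51 ± 0.09 (adjusted p = 0.00215). Trpv1 was at 130 and 140 CPM in the iKO vehicle pair and at 142 and 139 CPM in the iKO CFA pair, groups that overlapped (0.09 ± 0.07, adjusted p = 0.381). A median of -0.51 over all 35 transduction channels tested puts the change of Trpa1 at the middle of its list.

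**Figure D3:**
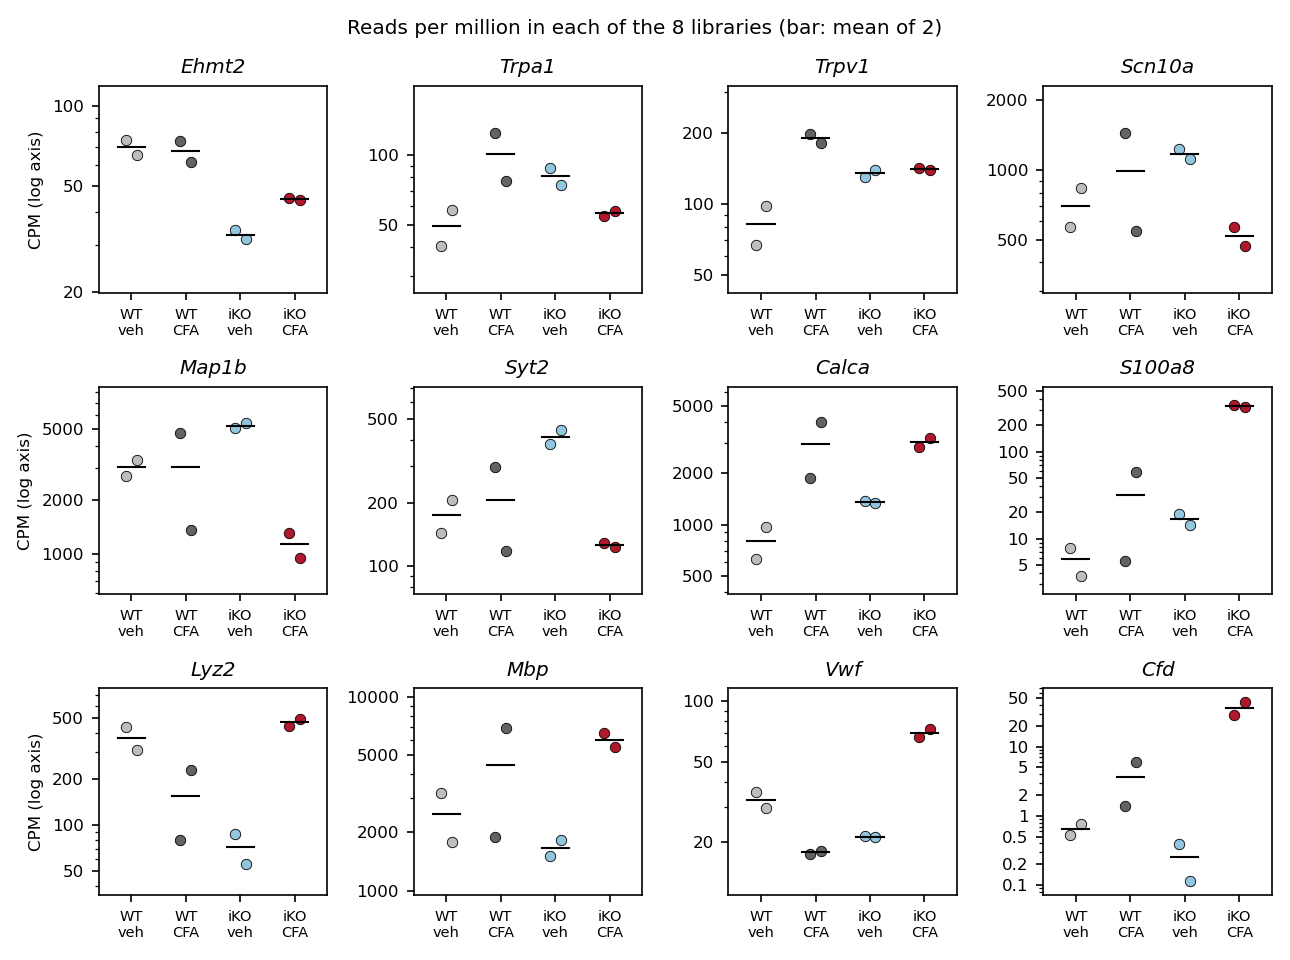
CPM (log axis) of 12 genes in each of the 8 libraries, points for libraries and bars for the mean of 2. For Scn10a, Map1b, Syt2, Mbp and S100a8 the WT CFA libraries lie apart from each other while the iKO pairs lie close together; Vwf stands at 67.0 and 72.9 CPM in the iKO CFA pair, above the 6 other libraries.

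Channels that set excitability were mostly lower with CFA. In the list of voltage-gated sodium channels 12 of 14 genes fell and 0 rose (median -1.01, against 0.02 over all genes tested). Scn7a, among those that fell, also stands in the list of non-myelinating and repair Schwann cell markers. Scn10a, the tetrodotoxin-resistant channel Nav1.8 of nociceptors, was at 1240 and 1117 CPM in the iKO vehicle pair and at 569 and 471 CPM in the iKO CFA pair. Both CFA libraries lay below both vehicle libraries (Scn10a change -1.15 ± 0.10, adjusted p = 2.27e-05). Scn8a, the channel Nav1.6 of the nodes of Ranvier, fell the most of the list, with 210 and 235 CPM after vehicle and 64.8 and 59.7 CPM after CFA (-1.81 ± 0.09). Scn9a, the threshold channel Nav1.7, was at 457 and 427 CPM with vehicle and 229 and 198 CPM with CFA (-1.02 ± 0.09). WT CFA library 2 lay below library 1 for these channels too, with 547 against 1444 CPM of Scn10a and a list median of -0.81 between these libraries. Scn2a (-0.19 ± 0.23) and Scn3a (-0.70 ± 0.29) did not pass.

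Potassium channels, which repolarise the membrane, followed with 46 of 65 lower and 2 higher (median -0.78). Kcnc1, a fast channel of large neurons, was at 66.9 and 71.7 CPM with vehicle and 19.83 and 19.02 CPM with CFA (-1.81 ± 0.10), and both CFA libraries lay below every other library. Kcnh5, an ether-a-go-go channel and the largest fall of the list, was at 9.05 and 9.76 CPM with vehicle and at 1.36 and 3.10 CPM with CFA (-2.04 ± 0.34). Voltage-gated calcium channels fell for 17 of 21 and rose for 1. Cacna1b, the N-type channel of presynaptic release, was at 156 and 154 CPM and then at 63.7 and 46.1 CPM (-1.47 ± 0.14). The 1 calcium channel that was higher, Cacna1g, was low throughout, at 1.32 and 0.689 CPM with vehicle and 4.82 and 3.92 CPM with CFA.

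Of the 35 transduction channels, which turn heat, cold, acid or force into current, 18 fell and 3 rose. Piezo2, the channel of touch and proprioception, was at 374 and 306 CPM in the iKO vehicle pair and at 149 and 118 CPM in the iKO CFA pair (-1.32 ± 0.13). Asic3, an acid-sensing channel of muscle and skin afferents, stood at 103 and 110 CPM and then at 51.7 and 52.6 CPM (adjusted p = 1.95e-05). Glutamate and GABA receptors fell for 19 of 32 and rose for 0, among them Grin1, the shared subunit of NMDA receptors (-1.40 ± 0.11). Of the opioid and cannabinoid genes 6 of 17 fell and 2 rose. Oprm1, the mu opioid receptor, went from 22.6 and 19.3 CPM to 8.92 and 9.05 CPM (-1.19 ± 0.15), and Cnr1, the CB1 receptor, from 44.2 and 44.5 CPM to 21.7 and 22.2 CPM (-0.99 ± 0.10). Penk, which encodes enkephalins, rose from 5.83 and 5.43 CPM to 12.5 and 16.7 CPM (1.40 ± 0.19).

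**Figure D4:**
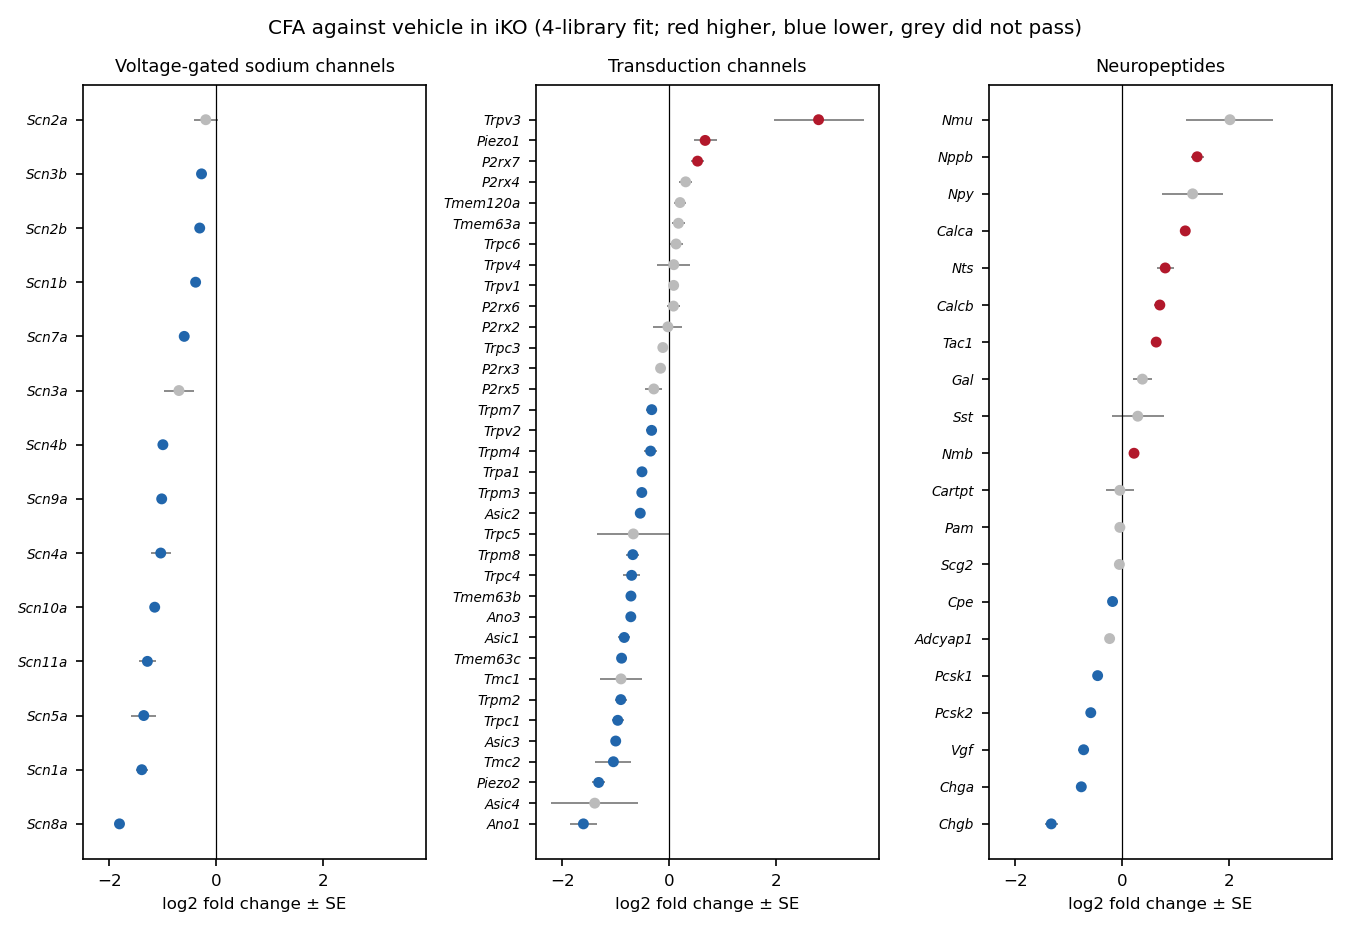
Log2 fold change ± SE of every tested sodium channel, transduction channel and neuropeptide gene, CFA against vehicle in the 4 iKO libraries. Red points rose, blue points fell and grey points did not pass; sodium channels lie left of 0, and the neuropeptide list lies on both sides of 0.

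Neuropeptide genes moved in both directions. Of 20 tested 6 rose and 6 fell (median 0.10). Calca, which encodes the vasodilator peptide CGRP of peptidergic nociceptors, was at 1378 and 1343 CPM in the iKO vehicle pair and at 2855 and 3229 CPM in the iKO CFA pair, a gap far wider than the spread within pairs (1.19 ± 0.07, adjusted p = 5.80e-06). Tac1, the gene of substance P, rose from 165 and 161 CPM to 244 and 255 CPM (0.64 ± 0.07). Nppb, the itch transmitter of a small neuron class, rose from 13.2 and 11.9 CPM to 33.8 and 31.7 CPM (1.41 ± 0.12). The fallers included Chgb and Chga, the granins that pack dense-core vesicles (-1.32 ± 0.13 and -0.76 ± 0.07), and Pcsk2, a convertase that cuts peptide precursors (-0.58 ± 0.07). Calca stood at 1890 and 4032 CPM in the WT CFA libraries and at 624 and 972 CPM in the WT vehicle pair.

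Markers of neuron classes differed in their shares. Large myelinated neurons, which carry touch and limb position, had 18 of 23 markers lower and 1 higher, Spp1. Nefh and Nefm, the heavy and medium neurofilaments of thick axons, went from 2241 and 2375 CPM to 906 and 889 CPM (-1.34 ± 0.06) and from 2346 and 2424 CPM to 778 and 686 CPM (-1.68 ± 0.08). Ntrk3, the receptor of neurotrophin-3, fell by 1.94 ± 0.08, from 294 and 299 CPM to 79.7 and 71.4 CPM. C-fibre low-threshold mechanoreceptor markers fell for 8 of 11, non-peptidergic and itch neuron markers for 12 of 25 with 1 higher (Nppb), and peptidergic markers for 5 of 18 with 6 higher. The non-peptidergic receptor Mrgprd was at 247 and 217 CPM with vehicle and 133 and 112 CPM with CFA (-0.89 ± 0.10). Dcn, one of the peptidergic markers that rose, is also expressed by fibroblasts. Differences between these classes were not tested.

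Most synaptic and axonal genes were lower. Of 33 synaptic vesicle and release genes 32 fell and 0 rose (median -0.94), and of 41 axonal transport and cytoskeleton genes 33 fell and 5 rose. Syt2, the calcium sensor of fast release, was at 381 and 444 CPM with vehicle and at 129 and 123 CPM with CFA (-1.69 ± 0.09). Map1b, a microtubule protein abundant in sensory axons, was at 5055 and 5352 CPM in the iKO vehicle pair and at 1309 and 952.5 CPM in the iKO CFA pair, the largest fall of its list (-2.17 ± 0.13, adjusted p = 7.80e-06). Kif1b, a motor of vesicle precursors, fell by 1.24 ± 0.07. Both iKO CFA libraries lay below all 6 other libraries for 12 of the 41 axonal genes, Map1b and Kif1b among them, against 1292 of all 18326 genes (7.05%). Pan-neuronal genes fell for 17 of 22 and rose for 3, with Stmn3, a tubulin-binding stathmin, at 1061 and 1108 CPM and then at 1743 and 1841 CPM (0.75 ± 0.06). Summed over the list, pan-neuronal reads were 19800 and 19610 CPM in the iKO vehicle pair and 17160 and 17040 CPM in the iKO CFA pair.

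Outside the lists the deepest falls were in Cdr1, known for its circular antisense transcript (-2.57 ± 0.41), and Trim66, a chromatin reader (-2.19 ± 0.22). The Cdr1 locus is transcribed from both strands and the strand setting of the counting was not given, so its sense and antisense reads cannot be told apart. Trim66 was at 19.98 and 19.3 CPM in the iKO vehicle pair, 5.15 and 3.29 CPM in the iKO CFA pair and 2.77 to 6.05 CPM in WT. Here the iKO vehicle pair stood apart from the other 6 libraries. Ryr2, the calcium release channel of the endoplasmic reticulum, went from 49.4 and 56.0 CPM to 14.8 and 8.20 CPM (-2.17 ± 0.23). Ppargc1b, a coactivator of mitochondrial genes, fell from 14.9 and 13.3 CPM to 3.53 and 3.40 CPM.

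The neutrophil and mast cell list had the highest median change of all lists. Neutrophils are short-lived blood granulocytes, and granule genes such as Ngp, Camp and Ltf are transcribed in their bone marrow precursors under factors of the C/EBP family. Of 22 neutrophil and mast cell markers 21 rose and 0 fell (median 3.77), and their summed level went from 139 and 88.7 CPM in the iKO vehicle pair to 1728 and 1737 CPM in the iKO CFA pair. S100a8, a calcium-binding alarmin, was at 19.2 and 14.3 CPM with vehicle and at 344 and 327 CPM with CFA (4.35 ± 0.13, adjusted p = 8.70e-07). Both iKO CFA libraries were above all 6 other libraries for S100a8 and for 21 of the 22 markers, against 1531 of all 18326 genes (8.35%). Ngp, a granule protein, was at 19.4 and 11.6 CPM and then at 269 and 267 CPM (4.14 ± 0.19). Retnlg, a resistin-like protein of neutrophils, rose by 5.01 ± 0.32, and Cxcr2, a chemokine receptor that releases neutrophils from marrow, by 4.04 ± 0.42. In WT CFA, library 2 held 57.7 CPM of S100a8 and library 1 held 5.56 CPM.

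The bases before the starts of granule genes are shown because their list had the highest median change. RefSeq promoters (build GRCm38.p6, cut to the 250 bases before the start) were found for 19 of the 22 markers. The C/EBP motif TTGCNNAA, searched on both strands, was present in 7 of these 19 genes (36.8%), in 1292 of 13582 tested genes with a promoter (9.51%) and in 1 of 30 interferon response genes (3.33%). A match is a description of letters and not a site of binding. The 3 carriers with the smallest p follow with the match in capitals, each read 5′ to 3′ on the strand of its gene, S100a9 from chr3:90695722-90695971 (minus strand), Ltf from chr9:111019042-111019291 (plus strand) and Ngp from chr9:110419558-110419807 (plus strand).
S100a9: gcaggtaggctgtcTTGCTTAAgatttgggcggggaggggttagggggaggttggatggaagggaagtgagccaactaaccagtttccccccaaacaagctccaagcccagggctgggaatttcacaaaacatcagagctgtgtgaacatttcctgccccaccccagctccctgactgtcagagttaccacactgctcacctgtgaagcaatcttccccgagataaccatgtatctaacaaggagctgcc
Ltf: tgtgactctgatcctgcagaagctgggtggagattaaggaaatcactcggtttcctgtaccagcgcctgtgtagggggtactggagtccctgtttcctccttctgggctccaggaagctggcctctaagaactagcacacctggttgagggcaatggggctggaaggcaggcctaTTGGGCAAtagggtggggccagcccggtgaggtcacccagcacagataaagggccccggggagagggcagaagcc
Ngp: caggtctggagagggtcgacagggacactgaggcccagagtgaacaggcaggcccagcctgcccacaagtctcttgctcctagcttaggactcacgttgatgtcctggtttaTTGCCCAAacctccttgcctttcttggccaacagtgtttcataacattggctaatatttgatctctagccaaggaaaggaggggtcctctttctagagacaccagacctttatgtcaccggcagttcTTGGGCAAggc

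Macrophage markers rose for 24 of 27 and fell for 0 (median 1.71). Lyz2, the lysozyme of macrophages and neutrophils, was at 87.3 and 55.9 CPM in the iKO vehicle pair and at 443 and 488 CPM in the iKO CFA pair (2.73 ± 0.17). Csf1r, the receptor macrophages need to survive, was at 21.6 and 21.2 CPM and then at 57.3 and 56.8 CPM (1.44 ± 0.09). It stood at 58.2 and 43.5 CPM in the WT vehicle pair and at 25.7 and 60.3 CPM in the WT CFA pair, so the iKO CFA level lay within the WT range. Tyrobp, a signalling adaptor of myeloid cells, rose by 2.55 ± 0.16. Lymphocyte markers were sparse. B cell and plasma cell markers rose for 4 of 13, led by Jchain, the joining chain of antibodies (2.98 ± 0.29), and T and NK cell markers rose for 4 of 16 and fell for 2. Over all genes tested the shares were 22% higher and 23.4% lower. Jchain was at 4.73 and 2.30 CPM in the iKO vehicle pair and 23.35 and 31.55 CPM in the iKO CFA pair. The WT vehicle pair held 1944 and 780 CPM of Jchain, far above iKO CFA, and the WT CFA pair held 0.961 and 0.445 CPM.

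Genes of innate signalling rose with the myeloid markers. Cytokines and chemokines rose for 22 of 37 and fell for 0, interferon response genes rose for 28 of 43 and fell for 1, antigen presentation genes of the MHC rose for 18 of 23 and fell for 0, and complement genes rose for 19 of 22 and fell for 1. Irf7, an interferon-induced factor, was at 13.04 and 5.22 CPM with vehicle and at 33.1 and 45.9 CPM with CFA (2.13 ± 0.33). The vehicle libraries differed from each other here, since the summed interferon list was at 1380 and 793.9 CPM in the iKO vehicle pair and 1589 and 1887 CPM in the iKO CFA pair. WT vehicle held 2365 and 2414 CPM, above both iKO groups. For the interferon list the gamma-activated sequence TTCNNNGAA was in 9 of 30 genes with a promoter (30%), in 0 of 19 neutrophil and mast cell markers and in 981 of 13582 genes tested (7.22%). The carrier with the smallest p was Irf8, a myeloid interferon factor that rose by 1.86 ± 0.29. Irf8 reached 12.1 and 13.4 CPM after CFA in iKO, below the WT vehicle pair at 32.7 and 24.6 CPM. Its 250 bases, chr8:120736108-120736357 on the plus strand, hold 2 matches, in capitals.
Irf8: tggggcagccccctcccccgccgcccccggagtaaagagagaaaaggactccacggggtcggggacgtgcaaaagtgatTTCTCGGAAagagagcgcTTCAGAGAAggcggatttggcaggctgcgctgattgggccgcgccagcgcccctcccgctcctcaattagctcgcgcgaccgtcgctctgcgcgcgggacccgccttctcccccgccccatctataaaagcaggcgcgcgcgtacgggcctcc

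Stromal and vascular genes were among those that also passed in the 8-library fit. The 8 calls were Cfd, Clec3b, Pi16, Eln, Vwf, Cd177, Erdr1 and 1 gene model without an established name, with adjusted p from 0.0382 to 0.0464. Vwf, the clotting factor of endothelium, was at 21.5 and 21.2 CPM in the iKO vehicle pair, 67.0 and 72.9 CPM in the iKO CFA pair, 35.5 and 29.7 CPM in the WT vehicle pair and 17.6 and 18.2 CPM in the WT CFA pair (1.71 ± 0.17, adjusted p = 0.0382 in the 8-library fit). The endothelial list separated the WT CFA libraries, like the lists above (median 0.76 for library 2 minus library 1). Vwf itself did not separate the WT CFA libraries, and its iKO CFA pair stood alone. Pi16, a marker of adventitial fibroblasts, had the same shape, with 2.79 and 2.78 CPM in the iKO vehicle pair, 16.6 and 17.6 CPM in the iKO CFA pair and 1.95 to 2.84 CPM in WT (2.61 ± 0.29, adjusted p = 0.0382). Clec3b, which encodes tetranectin, was at 1.59 and 0.775 CPM, then 14.3 and 15.5 CPM, and 1.34 to 1.88 CPM in WT. Eln, the gene of elastin, was at 2.77 and 4.02 CPM in the iKO vehicle pair and at 18.6 and 19.8 CPM in the iKO CFA pair, against 3.31 to 6.97 CPM in WT.

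Cfd, the adipocyte protease known as adipsin or complement factor D, showed the largest rise of all named genes. It was at 0.392 and 0.115 CPM in the iKO vehicle pair and at 28.8 and 44.0 CPM in the iKO CFA pair (7.11 ± 0.80, adjusted p = 0.0382 in the 8-library fit). WT libraries held 0.536 to 5.92 CPM of Cfd, with 1.39 and 5.92 CPM in WT CFA libraries 1 and 2. Other fat cell genes moved with it: Fabp4, a fatty acid carrier, was at 1.62 and 0.718 CPM and then at 25.4 and 29.2 CPM (4.54 ± 0.28), and Adipoq, the hormone adiponectin, at 0.0245 and 0.201 CPM and then at 4.19 and 6.28 CPM (5.59 ± 0.62). Of 17 adipocyte markers 10 rose and 0 fell. Cd177, a neutrophil surface protein, was at 3.06 and 1.84 CPM in the iKO vehicle pair and at 35.9 and 36.5 CPM in the iKO CFA pair. The WT CFA libraries held 0.988 and 2.60 CPM of Cd177. Erdr1, which lies near the end of the sex chromosomes and may share reads with near-identical copies, was at 1.18 and 1.15 CPM and then at 5.63 and 7.65 CPM. It was at 4.94 to 9.15 CPM in WT, so here the iKO vehicle pair stood alone.

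Fibroblast markers rose for 21 of 25 and fell for 1, endothelial markers rose for 19 of 23 and fell for 1, and pericyte and smooth muscle markers rose for 13 of 17 and fell for 0. Both iKO CFA libraries exceeded the 6 others for 16 of 25 fibroblast, 11 of 23 endothelial, 9 of 17 pericyte and 9 of 17 adipocyte markers, against 8.35% of all genes. These lists also separated the WT CFA libraries. Medians of library 2 minus library 1 were 0.665 for fibroblast, 0.915 for pericyte and 1.18 for adipocyte markers. Slc6a13, a GABA transporter of meningeal fibroblasts, was at 3.70 and 3.96 CPM and then at 24.5 and 33.9 CPM (2.96 ± 0.19), and Ptgds, a prostaglandin synthase also abundant in meninges, at 141 and 68.3 CPM and then at 1388 and 1790 CPM (3.95 ± 0.29). Plvap, a protein of vessel fenestrae, rose by 2.23 ± 0.17. Collagens rose for 23 of 37 and fell for 2, among them Col3a1, a fibrillar chain, from 114 and 104 CPM to 318 and 348 CPM (1.64 ± 0.08). Markers of skeletal muscle (2 of 15 higher, 2 lower), spinal cord (3 of 11 higher, 0 lower) and bone, cartilage and tendon (2 of 10 higher, 1 lower) gave shares nearer to those of all genes.

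Glial genes rose unevenly. Myelinating Schwann cell markers rose for 22 of 24 and fell for 0 (median 1.10), satellite glia markers rose for 11 of 23 and fell for 1, and non-myelinating and repair Schwann cell markers rose for 5 of 15 and fell for 6. Mbp, a major myelin protein, was at 1519 and 1821 CPM in the iKO vehicle pair and at 6509 and 5529 CPM in the iKO CFA pair (1.88 ± 0.11). WT CFA libraries held 1900 and 6965 CPM of Mbp, the first near the iKO vehicle level and the second above both iKO CFA libraries. Pmp2, a lipid-binding protein of compact myelin, rose from 36.3 and 32.0 CPM to 140 and 137 CPM (2.05 ± 0.09). Fabp7 and Apoe, satellite glia genes, rose by 0.64 ± 0.06 and 0.73 ± 0.06. L1cam, an adhesion molecule of axons and non-myelinating Schwann cells, fell by 1.23 ± 0.11.

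Red cell and organelle genes moved together as well. All 10 erythroid markers rose (median 2.18). Hbb-bs, a beta-globin chain that may share reads with its near-identical neighbour, was at 210 and 175 CPM in the iKO vehicle pair and at 857 and 788 CPM in the iKO CFA pair (2.12 ± 0.09), and at 79.7 and 752 CPM in the WT CFA libraries. All 13 mitochondrially encoded genes rose (median 1.88). COX1, the catalytic subunit of cytochrome oxidase, was at 5119 and 7180 CPM and then at 21520 and 21550 CPM (1.83 ± 0.13). Together the 13 genes took 1.34% and 1.86% of the reads in iKO vehicle, 6.09% and 5.95% in iKO CFA, and 3.94% and 12.1% in WT CFA. Cytosolic ribosomal proteins rose for 77 of 79 and fell for 0 (median 0.86), with Rps14 at 264 and 272 CPM and then at 857 and 873 CPM (1.72 ± 0.06). Nuclear-encoded respiratory chain genes rose for 46 of 61 and fell for 4, led by Ndufb8, a complex I subunit (1.27 ± 0.07).

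Direction went with transcript length. For 17036 of the 18326 genes tested (93%) a length was taken as the longest GENCODE vM21 transcript of the symbol. Among the 1491 genes under 1 kb the median change was 0.57, with 31.9% higher and 2.48% lower. In the 899 genes over 8 kb the median was -0.63, with 9.9% higher and 61.5% lower. Medians of the bins between ran in order, and the difference between the WT CFA libraries had the same order, from 0.50 to -0.70. Genes of the sensory neuron lists had medians of 0.71 under 1 kb (15 genes) and -1.09 over 8 kb (54 genes). Immune list genes had medians of 2.17 under 1 kb (27 genes) and 1.20 at 4 to 8 kb (35 genes), so they stood above 0 at these lengths. Stroma list genes had medians of 1.26 under 1 kb (5 genes) and 0.28 over 8 kb (21 genes). The part of length in any of these results was not tested.

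**Figure D5:**
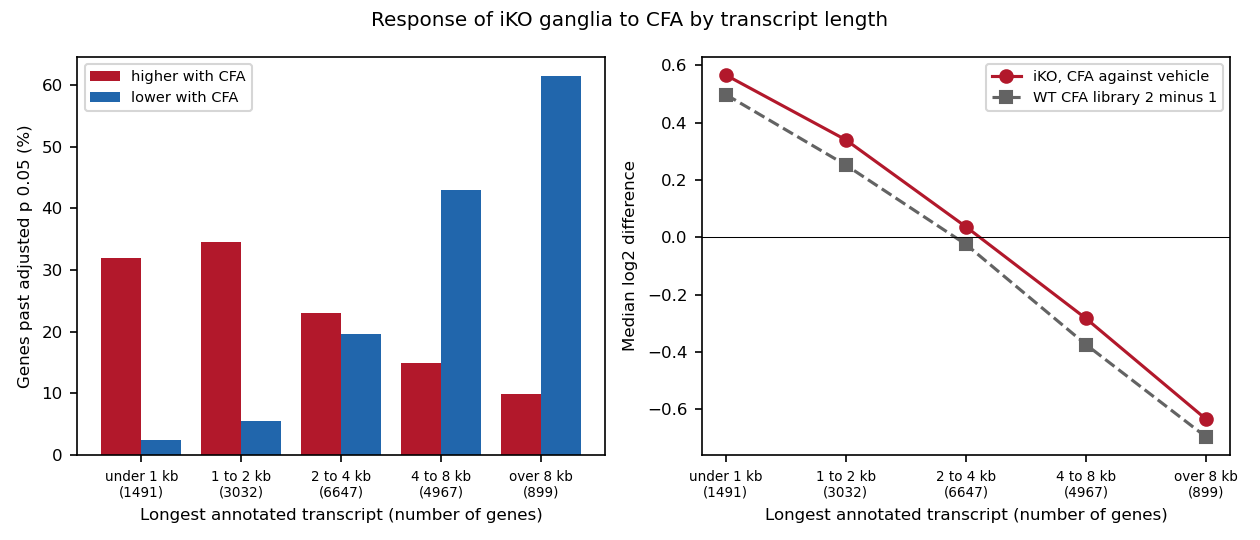
Left, share of genes that passed in the 4-library fit by length of the longest annotated transcript (number of genes in parentheses); right, median log2 difference in the same bins for CFA against vehicle in iKO and for WT CFA library 2 minus library 1. Both lines fall from above 0.4 in the shortest genes to below -0.6 in the longest.

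Stress, metabolic and activity genes gave mixed shares, against 22% higher and 23.4% lower over all genes tested. Heat shock proteins and chaperones fell for 17 of 31 and rose for 6. Bag3, a co-chaperone of protein clearance, went from 341 and 330 CPM to 141 and 132 CPM (-1.27 ± 0.07), and Cryab, a small heat shock protein also made by Schwann cells, from 142 and 146 CPM to 288 and 275 CPM (0.99 ± 0.07). Unfolded protein and integrated stress response genes rose for 13 of 30 and fell for 2, with the chaperone Hspa5 at 342 and 278 CPM and then at 410 and 457 CPM (0.51 ± 0.10). Immediate early genes rose for 10 of 31 and fell for 3, led by Ccn2, a matrix-linked growth factor (2.62 ± 0.17). Nerve injury response genes rose for 5 of 28 and fell for 5. Atf3, the standard marker of injured neurons, was at 15.2 and 17.6 CPM in the iKO vehicle pair and at 18.8 and 16.7 CPM in the iKO CFA pair, with overlap (0.14 ± 0.14, adjusted p = 0.482). It is given outside the naming rule.

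Cholesterol synthesis and glycolysis genes leaned lower, against 22% higher and 23.4% lower over all genes tested. Cholesterol synthesis genes fell for 13 of 25 and rose for 2. Fatty acid and lipid synthesis genes fell for 7 of 20 and rose for 4 (median -0.04). Fasn was among the fallers (-1.31 ± 0.11) and Elovl1 among those that rose (0.91 ± 0.09). Hypoxia and glycolysis genes fell for 12 of 27 and rose for 4, and Pfkp, a phosphofructokinase, fell from 568 and 497 CPM to 241 and 219 CPM (-1.18 ± 0.08). Antioxidant and metallothionein genes rose for 11 of 26 and fell for 5. The peroxidase Gpx4 was at 338 and 340 CPM with vehicle and at 662 and 710 CPM with CFA (1.04 ± 0.06).

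Of the chromatin genes listed, more fell than rose, against 22% higher and 23.4% lower over all genes tested. Of 26 genes of the H3K9 methylation machinery 14 fell and 1, Ehmt2, rose. Mphosph8, a reader of the mark in the HUSH silencing complex, was at 64.4 and 61.7 CPM with vehicle and at 34.2 and 29.9 CPM with CFA (-0.95 ± 0.10). Wiz, a zinc finger partner of G9a, fell by 0.86 ± 0.12. Of the writers and erasers of H3K4 and H3K27 methylation, 16 of 27 fell and 2 rose. Imprinted genes rose for 7 of 29 and fell for 11. Igf2, a fetal growth factor, was at 69.8 and 52.6 CPM in the iKO vehicle pair, 292 and 324 CPM in the iKO CFA pair and 16.5 to 60.1 CPM in WT (2.36 ± 0.12). H19, its imprinted neighbour, was at 21.03 and 14.2 CPM and then at 111 and 113 CPM (2.69 ± 0.15). Proliferation genes rose for 17 of 30 and fell for 0, with Mki67, a marker of dividing cells, at 3.38 and 3.65 CPM and then at 11.8 and 16.5 CPM (2.04 ± 0.22).

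The iKO response differed from the WT response for 1895 of 20235 genes in the 8-library fit (9.36%), 1253 with a higher and 642 with a lower response in iKO. The Pearson correlation between both responses across 18304 genes was -0.083. Of the 37 genes named for the always-listed channels and Ehmt2 or for their rank in either fit, 14 passed this test, 9 higher and 5 lower in iKO. Genes named for rank were picked for a large iKO response, which is part of the value tested. Their share and signs follow in part from that choice and cannot be set against those of all genes. Counts without 1 library ran from 228 (without WT vehicle library 1) to 8303 (without WT CFA library 2) and leaving out any of the 8 libraries moved the count by over 1.5 times. Trpa1 and Trpv1 were among the lower (-1.56 ± 0.37, adjusted p = 0.0384, and -1.15 ± 0.30, adjusted p = 0.0473). Both calls were lost with the replicate block, with a 1.5-fold minimum, and without WT vehicle library 1 or any 1 of the iKO libraries, where the adjusted p reached 0.178 for Trpa1 and 0.195 for Trpv1. The call of Trpa1 was also lost without WT vehicle library 2, and that of Trpv1 with robust dispersions. Neutrophil genes S100a8 and Ngp did not pass (1.87 ± 1.15, adjusted p = 0.295, and 1.93 ± 1.01, adjusted p = 0.223). WT vehicle levels also enter this test, and in some lists the WT vehicle pair stood apart. Nuclear noncoding RNAs summed to 5268 and 5415 CPM in WT vehicle and 949.7 and 733.3 CPM in WT CFA. The iKO libraries held 617.3 to 980.2 CPM of them. Neutrophil and mast cell markers did not stand apart, at 80.5 and 50.5 CPM in WT vehicle and 43.7 and 296 CPM in WT CFA. Jchain, at 1944 and 780 CPM in WT vehicle and 0.961 and 0.445 CPM in WT CFA, gave 13.84 (adjusted p = 0.0008375).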

How the data were processed

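Total RNA from 8 ganglion samples was sequenced on an Illumina NovaSeq, per the series text. Per the submitters' processing notes, the authors used HISAT2 2.2.1, SAMtools 1.19.2, featureCounts 2.0.6 and DESeq2 with the build GRCm39 (mm39). The annotation, strand setting and read layout were not given in the sources used here. The deposited values are counts, whole reads per gene symbol for 25780 genes, unscaled by the authors for depth or length. Totals of 26312614 to 42971823 reads per library limit precision mainly for genes of a few CPM.

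Groups were taken from sample titles. In R 4.3.3, edgeR 4.0.16 (filterByExpr, TMM, default glmQLFit and two-sided glmQLFTest, Benjamini-Hochberg over all genes tested, threshold 0.05) was fitted to the 4 iKO libraries and, with 1 mean per group, to all 8. The first fit tested 18326 genes and the second 20235. CPM use the TMM factors of all 8 libraries. Log2 differences between the libraries of a pair, and correlations, were descriptive, with 0.1 CPM added in the length bins and sign counts. Labels do not state separate animals, so each p-value reflects only how these libraries vary, which may be technical. No 2 libraries agreed within sampling noise (chi-square per gene at least 12). The fits were also run on simulated data with 1 common spread for all libraries, whereas the spread here differed between groups (chi-square per gene 338 for WT CFA). That run does not show how the fits behave when groups differ in spread.

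Members, the 60 gene lists and the naming rule were chosen with earlier results of these data known. The rule names Ehmt2, Trpa1 and Trpv1, the 15 largest rises and falls called in each fit without overlap of the groups and averaging 1 or more in log2 CPM, and the 6 members of each list with the smallest p; further members are given as values. Some genes that the rule names are not reported here. Avil, Atf3, Scn2a, Scn3a, Cacna1g and Spp1 fall outside this rule and were picked with their values known. Alternatives were DESeq2 1.42.0, RLE scaling, removal of mitochondrial genes, other filters, robust and newer dispersion settings, a 1.5-fold minimum, a replicate block and leaving out libraries.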

Additional observations from a re-analysis of the deposited data

Results flagged for a closer look

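In the fit to all 8 libraries, 14 of the 37 genes named for themselves or for their rank responded differently to CFA in iKO and WT ganglia, and 13 of them are given here. All but Ehmt2, Trpa1 and Trpv1 were picked for a large iKO response, which is part of the value tested. The share that passed and the signs follow in part from that choice. Each value is the iKO response minus the WT response on the log2 scale (edgeR's quasi-likelihood test of the interaction, Benjamini-Hochberg adjusted over 20235 genes).

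Both channels of the study's title had a lower response in iKO. Trpa1 differed by -1.56, with an adjusted p of 0.0384. The value of Trpv1 was -1.15, with an adjusted p of 0.0473. Each passed in 9 of 16 alternatives, a count that leaves out the 1.5-fold minimum, and the highest adjusted p was 0.178 for Trpa1 and 0.195 for Trpv1. Trpa1 went from 40.7 and 58.1 CPM to 124 and 77.2 CPM in WT, and Trpv1 from 66.7 and 98.0 CPM to 199 and 182 CPM, with all WT CFA libraries above all WT vehicle libraries. The iKO vehicle pair already stood above the WT vehicle pair, with Trpa1 at 87.9 and 74.5 CPM and Trpv1 at 130 and 140 CPM. The other 3 genes with lower values were Sapcd1 at -3.00 (adjusted p = 0.0357), Kcnh5 at -2.35 (adjusted p = 0.0436) and Ppargc1b at -2.53 (adjusted p = 0.0183). They passed in 9, 10 and 11 of the 16 alternatives, with adjusted p up to 0.154, 0.194 and 0.106. Lower responses were not particular to these genes. Of genes in the neuronal lists, Grin1 (-2.62, adjusted p = 0.0183) and Eno2 (-1.76, adjusted p = 0.0239) also passed. Scn10a (-1.68, adjusted p = 0.0919) and Rbfox3 (-1.41, adjusted p = 0.127) had lower values and did not pass. Penk had a higher value and did not pass (0.39, adjusted p = 0.736).

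Of the named genes, 6 of matrix, vessels, fibroblasts and fat had higher responses in iKO; their lists were not tested. The difference was 3.43 for Eln, 2.58 for Vwf, 3.81 for Clec3b, 2.66 for Pi16, 4.66 for Cfd and 4.49 for Fabp4, with adjusted p from 0.00176 for Vwf to 0.0311 for Cfd. Vwf and Eln were lower in both WT CFA libraries than in both WT vehicle libraries. Mmp9, a neutrophil protease, gave 3.29 (adjusted p = 0.0428). Erdr1 gave 3.31 (adjusted p = 0.0034). The calls of Eln, Vwf, Clec3b and Erdr1 passed in all 16 of these alternatives, Pi16 in 15, Fabp4 in 14, Cfd in 10 and Mmp9 in 9.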

How the results depend on the processing

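The 4-library count of 8309 stayed within 1.5 times under every alternative but a 1.5-fold minimum, which left 2813, and lay between 6930 and 7767 when 1 iKO library was left out (the lone library of a pair is then assumed to vary like the others). Of its genes 2685 (32.3%) passed in all 13 alternatives, and 0 changed sign where called in both. The 8-library count of 8 became 510 without the low-count filter, 181 with the newer dispersion setting of edgeR (legacy = FALSE), 3364 with DESeq2, and 0 with the CPM filter, the 1.5-fold minimum or the replicate block (5549, 2564 and 5340 genes at an unadjusted p under 0.05). Its range was 0 to 6951 with 1 library left out, 0 without both WT vehicle libraries (4987 at an unadjusted p under 0.05) and 6967 without both WT CFA libraries. The interaction count of 1895 became 1062 with the replicate block, 860 with the 1.5-fold minimum and 3901 with DESeq2 (2192 higher, 1709 lower), and ran from 228 to 8303 with 1 library left out. Replicate numbers are shared in the titles only, and deviations of the same-numbered iKO libraries had a correlation of 0.0084. That value shows no strong effect shared by number, and it cannot settle whether same-numbered samples were paired. In the 4-library fit the block gave 8575 calls. Of the named genes Atf3, which did not pass, ran from -4.63e-05 (without iKO vehicle library 1) to 0.218 (without iKO CFA library 2) in the 8-library fit, and only the first of these changed its sign. The cause of these differences was not tested. Depth limits genes near 1 CPM, such as Adipoq or Cfd with vehicle, where fold changes rest on few reads.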

Other observations

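The remaining gene lists gave these counts in the 4-library fit of CFA against vehicle in iKO. In that fit 22% of all genes tested were higher and 23.4% lower. Extracellular matrix and remodelling genes rose for 28 of 41 and fell for 4, led by Mmp9, a gelatinase of neutrophils, at 5.07 and 2.53 CPM with vehicle and 55.0 and 59.6 CPM with CFA. Mitochondrial ribosomal proteins rose for 43 of 77 and fell for 3. Proteasome subunits rose for 13 of 32 and fell for 7, and lysosome and autophagy genes rose for 11 of 32 and fell for 10. Receptors of inflammatory mediators rose for 10 of 46 and fell for 11, near the shares of all genes. Neurotrophin and GDNF family genes rose for 2 of 22 and fell for 11.

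Glucocorticoid and circadian genes rose for 3 of 22 and fell for 7. Hlf, a clock-controlled transcription factor, was at 6.52 and 7.49 CPM with vehicle and 23.1 and 24.3 CPM with CFA. Clustered protocadherins, adhesion molecules of neurons, fell for 16 of 53 and rose for 1; their shared exons may split reads between members. Replication-dependent histones rose for 5 of 20 and fell for 1, nuclear noncoding RNAs rose for 5 of 13 and fell for 4, and germline genes rose for 1 of 6 and fell for 1.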
